A study of Mus musculus with 24 samples.

Results

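Naive CD4 T cells without Trim28 were compared with wild-type cells after both had been stimulated through the T cell receptor (TCR). The members of the comparison are the 8 arrays of stimulated naive cells among the 24 arrays of the study, 4 from conditional knockout (CKO) and 4 from wild-type (WT) mice. CKO mice carry a deletion of Trim28 limited to T cells, per the study's title. The promoter that drives the deletion is not given in the sources used here. All mice were female C57BL/6. In both groups replicates 1 and 4 came from mice aged 7 weeks and replicates 2 and 3 from mice aged 6 weeks. Cells were sorted as CD4+ CD62+ CD25- and cultured for 13 hours on plates coated with anti-CD3 and anti-CD28, antibodies that engage the TCR and its costimulatory receptor. The labels number the replicates without naming animals, and the p-values therefore reflect only how far these samples spread, which may be technical. Resting WT and CKO cells of the same sort, 4 arrays each, gave the effect of Trim28 loss without stimulation. In both resting groups replicates 1, 2 and 3 came from mice aged 6 weeks and replicate 4 from mice aged 7 weeks. Replicate 1 therefore differed in age between resting and stimulated cells.

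TRIM28, also called KAP1, is a corepressor that KRAB zinc finger proteins bring to DNA, where it gathers the histone methyltransferase SETDB1, HP1 proteins and the NuRD complex. It is best known for silencing of endogenous retroviruses and imprinted loci. A naive CD4 T cell that meets its antigen leaves quiescence within hours: it switches off the trafficking and survival genes of the resting state, builds ribosomes and metabolism, makes IL-2, and turns on E2F target genes before its first S phase.

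Values are log2 signals relative to the 75th percentile of their own array, so 0 is that percentile, and levels of different probes cannot be set against each other. A gene was called when limma's moderated test gave a Benjamini-Hochberg adjusted p under 0.05 over all 16489 genes. A log2 difference is CKO minus WT, given with its standard error. The 75th percentile of raw signal ran from 153.9 to 299.8 on the WT arrays and from 200.7 to 371.8 on the CKO arrays, and 51.8 to 57.3% and 55.1 to 60.7% of spots were well above background. Arrays of a group correlated at 0.978 to 0.99 (WT) and 0.97 to 0.993 (CKO) over genes. Stimulated arrays of the same replicate number shared a slide, and so did resting ones. Resting replicates 2 and 4 lay on slides 3 and 6, which held no stimulated array.

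Trim28 itself was 6.43-fold lower in the stimulated CKO cells. Its level was 3.40, 3.86, 3.76 and 3.60 on the WT arrays and 1.08, 1.05, 1.23 and 0.53 on the CKO arrays. The highest CKO array was more than 4-fold under the lowest WT array, with a log2 difference of -2.68 ± 0.17 (adjusted p = 8.97e-10, limma). In resting cells the difference was -1.51, and the stimulated difference was the larger by 1.17 ± 0.24 (adjusted p = 0.00756). WT cells held a mean of 2.45 at rest and 3.66 after stimulation, while CKO cells held 0.94 and 0.97. A single probe reads Trim28, and whether it lies within the deleted part is not known here. The Trim28 readings therefore fitted the genotype labels on all 8 arrays.

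Cell identity markers were checked next. Cd4, the coreceptor of the sorted cells, was -1.19, -0.84, -0.82 and -0.81 in WT and -0.86, -1.04, -0.74 and -1.17 in CKO cells, groups that overlapped (-0.04 ± 0.15, adjusted p = 0.876). A second Cd4 probe gave -0.72. Of 12 CD4 T cell markers 1 was higher and 1 lower, and their summed level was 696 to 746 in WT and 506 to 750 in CKO arrays. Further probes disagreed with the main ones for Cd3e (0.99 against -0.22) and Cd28 (0.77 against -0.47). Markers of other cells were detected too. Of 19 B cell markers 5 were higher in CKO, with a list median of 1.29, and their summed level was 44.9 to 68.8 in WT and 62.6 to 87 in CKO arrays. None of 22 myeloid and dendritic cell markers was called, but their median was 0.73, with slide values of 1.18, 0.46, -0.06 and 0.23 and summed levels of 32.7 to 54.1 in WT and 27.7 to 166 in CKO arrays. With another background correction, normexp, the medians were 0.36 for B cell markers and -0.08 for myeloid and dendritic cell markers. The RNA is from bulk cells, so fewer cells of a type and less RNA per cell cannot be told apart.

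**Figure D1:**
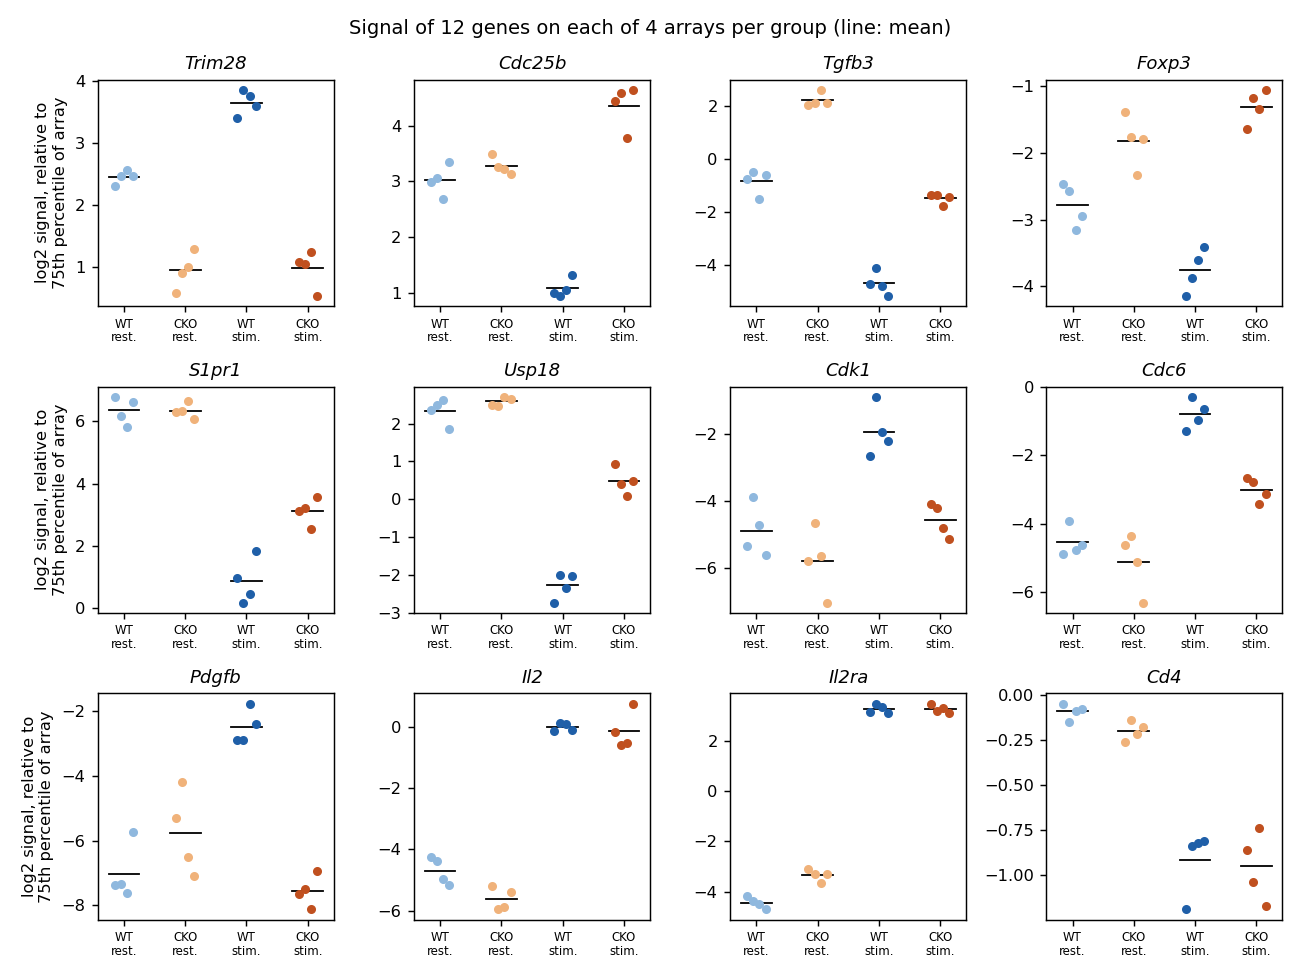
Log2 signal of 12 genes on each array of the 4 naive groups (WT and CKO, resting and stimulated), relative to the array's 75th percentile; each point is 1 array and each line a group mean of 4. Trim28 lies between 0.53 and 1.23 on stimulated CKO arrays and at 3.40 or above on stimulated WT arrays, Cdc25b is high in every group but stimulated WT, and Il2ra and Cd4 overlap between stimulated groups.

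Across all genes, 3964 were called, 24% of those tested. Of these 1912 were higher in CKO cells (11.6%) and 2052 were lower (12.4%). These shares of all genes are the background for the counts of each gene list. With this processing 1039 of the 1347 called genes with a log2 difference beyond 1 in size were higher in CKO. Dim genes leaned upwards under it, as described below, and this count was not repeated under other normalizations. The groups did not overlap for 4222 genes, 25.6% of all. With slide as a fixed block over all 24 arrays the count of called genes was 4470. With only the 8 stimulated arrays fitted it was 3193 without a block. Adding the replicate number, which stimulated arrays of a slide share, as a fixed block on those 8 gave 1643. Of these 1456 were among the 3964. Without WT replicate 2, CKO replicate 2 or CKO replicate 3 the main count was 2385, 2506 or 2452. Without WT replicate 3 the falls alone came to 1358. On simulated data with 200 changed genes the same fit recovered 54% of genes changed by a log2 of 1 and 94% of those changed by 2. The simulation had independent noise, no slide effects and far fewer changed genes than were called here. Its rates therefore do not carry over to this comparison.

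The size of the difference moved with the brightness of the probe. Over the dimmest 10% of genes the median difference was 0.40 and over the brightest 10% -0.38, against a median of -0.05 over all. Scaling on the brightest shared probes instead moved the median of all genes by 0.27, to 0.22, and 82.7% of its 4211 calls were higher in CKO, against 48.2% here; quantile and cyclic loess normalization gave 60.8% and 59.2%, and normexp background correction 38.6%. The numbers of rises and falls over all genes therefore have no fixed balance. Scaling on the brightest probes shifted every gene alike. Quantile normalization moved the brightest 10% more, to -0.04, against 0.27 in the dimmest. Normexp moved the dimmest 10% more, to -0.21, against -0.32 in the brightest. The 3672 array features with no RefSeq match, which include clone and predicted transcripts, had a median of 0.35 with 716 higher and 192 lower, while the 12817 matched genes had a median of -0.11.

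**Figure D2:**
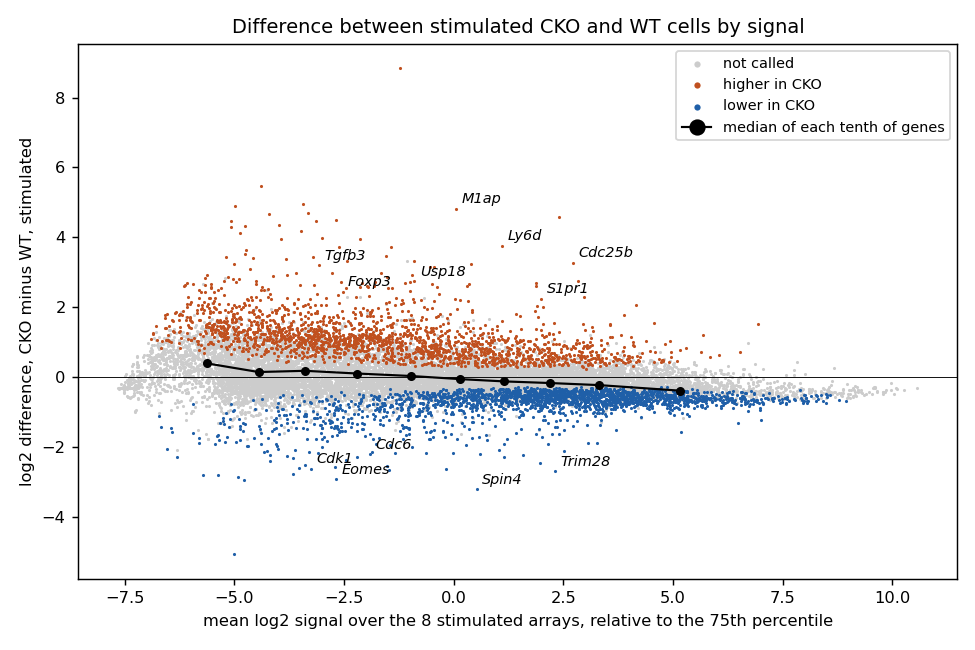
Log2 difference of CKO from WT stimulated cells (y) against the mean log2 signal of the 8 stimulated arrays (x), 1 point a gene; coloured points are the called genes and the line joins the medians of 10 equal bins of genes by signal. The median runs from 0.40 in the dimmest bin to -0.38 in the brightest.

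DNA replication genes were lower in stimulated CKO cells almost throughout. Of 71 measured, 64 were called lower (90.1%) and none higher, with a median log2 difference of -0.92, where 12.4% of all genes were called lower. These genes load and start the replication forks and supply nucleotides. Averaged over the list, the WT arrays stood at 1.88, 2.17, 2.03 and 1.95 after stimulation and the CKO arrays at 1.17, 1.09, 0.89 and 0.98. At rest the WT arrays stood between -0.07 and 0.19 and the CKO arrays between -0.25 and -0.07, with 2 members called higher and 5 lower, where 7.83% and 10.9% of all genes were. Stimulation of WT cells raised 64 of the 71 and lowered 2, against 31.7% and 30.2% of all genes. CKO cells thus still induced the list on stimulation, by a median of 1.07 against 1.95 in WT cells. For a difference between states 20 of its genes were called, all 20 more negative after stimulation, where 1.30% of all genes were. Within the 4 slides the stimulated median was -0.7, -1.02, -1.14 and -0.76.

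Promoter sequence was read for these genes because they fell together. E2F factors bind the letters TTTCCCGC, TTTGGCGC, TTTCGCGC or TTTGCCGC, searched on both strands in RefSeq windows (GRCm38.p6) of 250 bases before and 50 after each gene's start. Cdc6 loads the MCM helicase and is on the forward strand, at chr11:98907901-98908200. Mcm3 is part of that helicase and is on the reverse strand, at chr1:20820263-20820562. Both are shown 5′ to 3′ along the gene, with E2F matches in capitals, 1 in Cdc6 and 2 in Mcm3:
Cdc6: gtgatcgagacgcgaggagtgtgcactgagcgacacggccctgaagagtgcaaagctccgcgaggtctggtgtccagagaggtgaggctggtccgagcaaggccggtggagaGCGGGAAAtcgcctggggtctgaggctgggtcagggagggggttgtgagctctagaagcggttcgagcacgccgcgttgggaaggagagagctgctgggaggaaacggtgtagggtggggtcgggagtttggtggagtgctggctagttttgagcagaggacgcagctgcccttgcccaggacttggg
Mcm3: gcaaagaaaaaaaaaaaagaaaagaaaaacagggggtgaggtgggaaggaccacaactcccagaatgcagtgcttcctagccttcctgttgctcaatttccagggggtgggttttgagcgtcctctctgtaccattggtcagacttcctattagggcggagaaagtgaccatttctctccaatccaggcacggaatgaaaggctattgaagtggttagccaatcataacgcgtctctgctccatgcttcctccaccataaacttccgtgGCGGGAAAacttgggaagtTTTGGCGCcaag
An E2F match was present in 19 of the 58 replication genes with a window (32.8%), against 2.32% of all 27025 windows and 3.97% of the 10288 tested genes that had one. All 19 genes with a match were called lower (median -0.86), as were 33 of the 39 without (median -0.91).

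The replication genes shown by sequence fell as follows. Cdc6 was -1.30, -0.29, -0.96 and -0.64 in WT and -2.67, -2.78, -3.44 and -3.13 in CKO cells, and the groups stood apart (-2.20 ± 0.44, adjusted p = 0.00162, limma). Mcm3 was 5.08, 5.67, 5.54 and 5.51 in WT and 4.54, 4.46, 4.12 and 4.58 in CKO cells (-1.02 ± 0.18, adjusted p = 0.000416). Neither gene's groups overlapped. Mcm10, which joins the helicase as forks are activated, read 1.71, 2.40, 1.94 and 2.20 in WT and 0.08, 0.33, -0.51 and 0.01 in CKO cells (-2.09 ± 0.39, adjusted p = 0.000873). Gmnn encodes geminin, which blocks a second round of licensing. Its WT arrays read 4.02, 4.24, 4.06 and 3.68 and its CKO arrays 2.42, 2.32, 1.71 and 2.06 (-1.87 ± 0.20, adjusted p = 2.15e-06). For Gmnn the effect after stimulation also differed from that at rest, by -1.45 (adjusted p = 0.00577). Pcna, the sliding clamp, differed by -1.01 ± 0.18 and Dtl, the substrate receptor of a PCNA-coupled ubiquitin ligase, by -1.94 ± 0.32. Further Dtl probes gave -1.78 and -0.34.

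Mitosis and spindle genes were also lower. Of 80 measured, 41 were called lower (51.2%, against 12.4% of all genes) and none higher, with a median of -0.93. The list averaged -1.41, -1.01, -1.31 and -1.19 on the WT arrays and -2.10, -1.98, -2.39 and -2.22 on the CKO arrays, which did not overlap. Resting WT arrays lay between -2.41 and -1.74, a range that held all 4 stimulated CKO arrays. Without WT replicate 2 the count of lower members was 26. The list's median response to stimulation was 1.08 in WT and 0.23 in CKO cells. Of its members 9 were called more negative after stimulation than at rest, where 1.30% of all genes were.

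Cdk1, the kinase that drives entry into mitosis, was among the largest falls of this list. Promoters of mitotic genes often carry the CHR element TTTGAA and the NF-Y box CCAAT. The Cdk1 window, on the reverse strand at chr10:69352863-69353162, is shown with its 2 CHR matches in capitals:
Cdk1: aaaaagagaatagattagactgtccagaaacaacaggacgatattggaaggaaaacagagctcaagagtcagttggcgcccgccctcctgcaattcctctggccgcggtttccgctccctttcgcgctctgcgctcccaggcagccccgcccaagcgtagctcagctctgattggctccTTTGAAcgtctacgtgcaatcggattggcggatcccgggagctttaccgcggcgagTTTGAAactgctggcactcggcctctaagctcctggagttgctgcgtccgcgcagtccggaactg
A CHR match was present in 41 of 66 mitosis genes with a window (62.1%, against 18.1% of all windows) and a CCAAT match in 45 (68.2%, against 37.9%). Of the 41 genes with a CHR match 18 were called lower, with a median of -0.77, and of the 25 without 15 were, with a median of -1.06. Cdk1 signal was -2.65, -0.90, -1.96 and -2.23 in WT and -4.08, -4.22, -4.81 and -5.13 in CKO cells (-2.62 ± 0.57, adjusted p = 0.00279, limma). No CKO array reached the lowest WT array. CKO replicate 4 lay under -4.97, the lowest signal well above background on that array. The size of the fall is therefore not fully measured.

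Other mitotic regulators fell alongside it. Ncapg, a condensin subunit, read 0.18, 0.24, -0.35 and 0.10 in WT and -1.67, -1.70, -2.43 and -1.96 in CKO cells (-1.99 ± 0.36, adjusted p = 0.000658). Kntc1, a kinetochore protein of the spindle checkpoint, differed by -1.77 ± 0.26 and Cenpk, a centromere protein, by -1.94 ± 0.37, with further Cenpk probes at -1.85 and -0.61. Mad2l1, another checkpoint protein chosen here after its values were seen, differed by -1.35 ± 0.15 after stimulation and by 0.06 at rest, a gap of -1.41 ± 0.21 (adjusted p = 0.000433). Mki67, the proliferation marker, chosen in the same way, gave -0.68 ± 0.38 and was not called (adjusted p = 0.193).

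**Figure D3:**
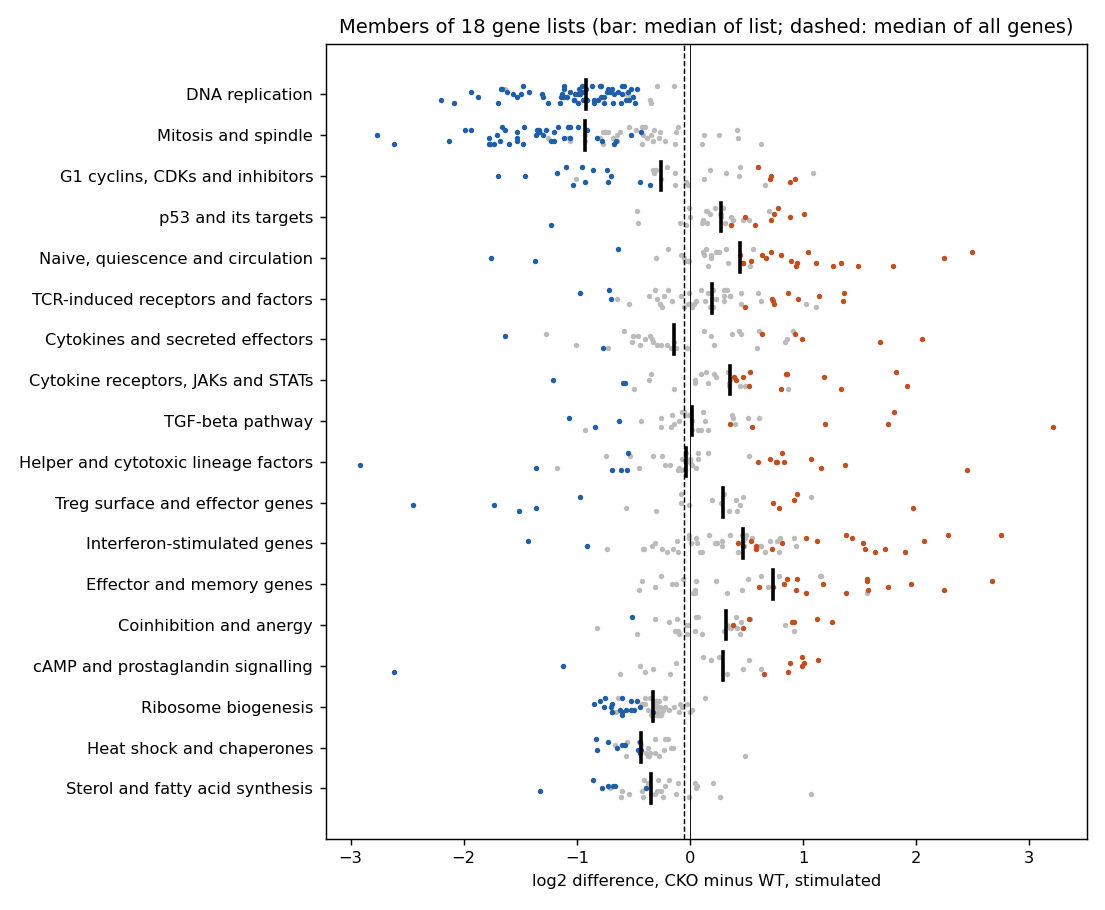
Log2 difference of CKO from WT stimulated cells for the measured members of 18 gene lists, 1 point a gene; the bar is the list median and the dashed line the median of all genes, -0.05. DNA replication and mitosis lie almost wholly below 0, at medians of -0.92 and -0.93, and effector and memory genes lie mostly above it, at 0.74.

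Upstream of S phase, regulators of the G1 phase divided. Of 35 measured, 13 were lower (37.1%) and 5 higher (14.3%), against 12.4% and 11.6% of all genes. Their median was -0.26, and near 0 (0.02) when arrays were scaled on the brightest probes. Ccne1, the cyclin that starts S phase with CDK2, was 2.84, 3.08, 2.66 and 2.87 in WT and 1.17, 1.51, 0.72 and 1.27 in CKO cells (-1.70 ± 0.20, adjusted p = 7.22e-06, limma). Its groups were clear of each other. E2f1, the transcription factor that turns on S phase genes, was -0.31, -0.11, -0.39 and -0.41 against -1.57, -1.52, -2.02 and -1.94 (-1.46 ± 0.30, adjusted p = 0.00209). Of the 6 cyclin-dependent kinase inhibitors measured, Cdkn1a and Cdkn1b were higher, Cdkn2c was lower (-0.73 ± 0.24, adjusted p = 0.0331), and the others were not called. Cdkn1b (p27), chosen like Cdkn2c after its values were seen, was 0.33, -0.13, 0.47 and 0.63 in WT and 1.19, 1.00, 0.79 and 1.17 in CKO cells (0.71 ± 0.15, adjusted p = 0.00226). Cdkn1a (p21) differed by 0.89 ± 0.28 (adjusted p = 0.0259), a call that ended without WT replicate 3 (adjusted p = 0.0934) or CKO replicate 4 (adjusted p = 0.0546). Of 33 p53 targets 8 were higher (24.2%) and 1 (3.03%), Perp, was lower (-1.23 ± 0.27), with a median of 0.28.

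Among the 12 CDC25 phosphatases and checkpoint kinases 1 was higher (8.33%) and 2 were lower (16.7%), against 11.6% and 12.4% of all genes. The family did not move as one. The one that rose was Cdc25b, which activates cyclin-dependent kinases. Cdc25b was 1.00, 0.95, 1.05 and 1.32 in WT and 4.44, 4.58, 3.78 and 4.64 in CKO cells. The lowest CKO array lay far above the highest WT array, and the fold was 9.69 (3.28 ± 0.18 on the log2 scale, adjusted p = 2.24e-10, limma). At rest the means were 3.02 in WT and 3.27 in CKO cells (0.25, adjusted p = 0.352). WT cells lost Cdc25b on stimulation and CKO cells did not, and the difference between states was 3.03 ± 0.26 (adjusted p = 1.42e-06). The Cdc25b window, on the forward strand at chr2:131186698-131186997, is shown because the gene has the largest difference between states among rises; its 1 CCAAT match, in capitals, begins at base -28 from the start site:
Cdc25b: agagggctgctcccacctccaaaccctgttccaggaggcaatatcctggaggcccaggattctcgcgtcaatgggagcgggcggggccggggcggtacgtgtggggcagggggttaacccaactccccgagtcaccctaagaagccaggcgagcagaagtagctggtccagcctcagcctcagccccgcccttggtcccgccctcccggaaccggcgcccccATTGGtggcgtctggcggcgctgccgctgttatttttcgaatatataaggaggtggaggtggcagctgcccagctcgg
Its relatives fell with the S phase genes: Chek1, the checkpoint kinase of S phase, differed by -1.43 ± 0.34 and Cdc25a, which opens the way into S phase, by -0.77 ± 0.16.

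Genes of the naive and quiescent state were higher in stimulated CKO cells. Of 41 measured, 19 were higher (46.3%) and 3 lower, with a median of 0.45, where 11.6% of all genes were called higher. At rest the same list had a median of -0.19. After stimulation 17 members were called more positive than at rest, where 2.12% of all genes were. The list averaged 1.50, 1.45, 1.54 and 1.78 on WT and 2.14, 2.10, 1.78 and 2.11 on CKO arrays. CKO replicate 3 met the highest WT array at 1.78. Resting levels were far higher in both genotypes, 4.02 to 4.11 in WT and 3.61 to 3.81 in CKO cells, so both genotypes lowered the list and CKO cells lowered it less far. Within slides the median was 0.54, 0.5, 0.23 and 0.39. With only the 8 stimulated arrays fitted 12 members were higher, and with the replicate number as a block 10.

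S1pr1, the receptor by which T cells leave lymph nodes, led this group. It read 0.99, 0.19, 0.45 and 1.84 in WT and 3.14, 3.22, 2.55 and 3.57 in CKO cells (2.25 ± 0.29, adjusted p = 2.02e-05, limma), and the groups did not overlap. Its difference from the resting effect was 2.26 (adjusted p = 0.00310). Klf2, the transcription factor that maintains S1pr1, read 2.27, 2.40, 3.00 and 3.59 in WT and 4.37, 4.26, 3.62 and 4.95 in CKO cells (1.48 ± 0.26, adjusted p = 0.000569). CKO replicate 3 barely cleared WT replicate 4, and a second Klf2 probe gave -1.01, so the 2 probes disagree on its direction and the call ended when they were averaged (adjusted p = 0.489). Pik3ip1, an inhibitor of PI3K, read 0.31, -0.02, 0.66 and 1.14 in WT and 2.56, 2.42, 1.74 and 2.56 in CKO cells (1.80 ± 0.21, adjusted p = 4.39e-06). Tsc22d3, the glucocorticoid-induced leucine zipper, differed by 1.34 ± 0.19.

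Further members of the naive list were chosen after their values were seen. Il7r, the receptor for the survival cytokine IL-7, read -1.03, -2.88, -1.92 and -0.66 in WT and -0.40, -0.25, -0.50 and -0.27 in CKO cells (1.27 ± 0.30, adjusted p = 0.00555). Its WT arrays were spread over more than a log2 of 2 and its CKO arrays lay close together. Foxo1, the factor upstream of Klf2 and Il7r, differed by 0.45 ± 0.11. Igfbp4, a further naive cell gene, went down by its main probe (-1.76 ± 0.53, adjusted p = 0.0218), while its second probe gave -0.05. That call ended without WT replicate 4, CKO replicate 1 or CKO replicate 3 (adjusted p = 0.0763, 0.057 and 0.0788).

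**Figure D4:**
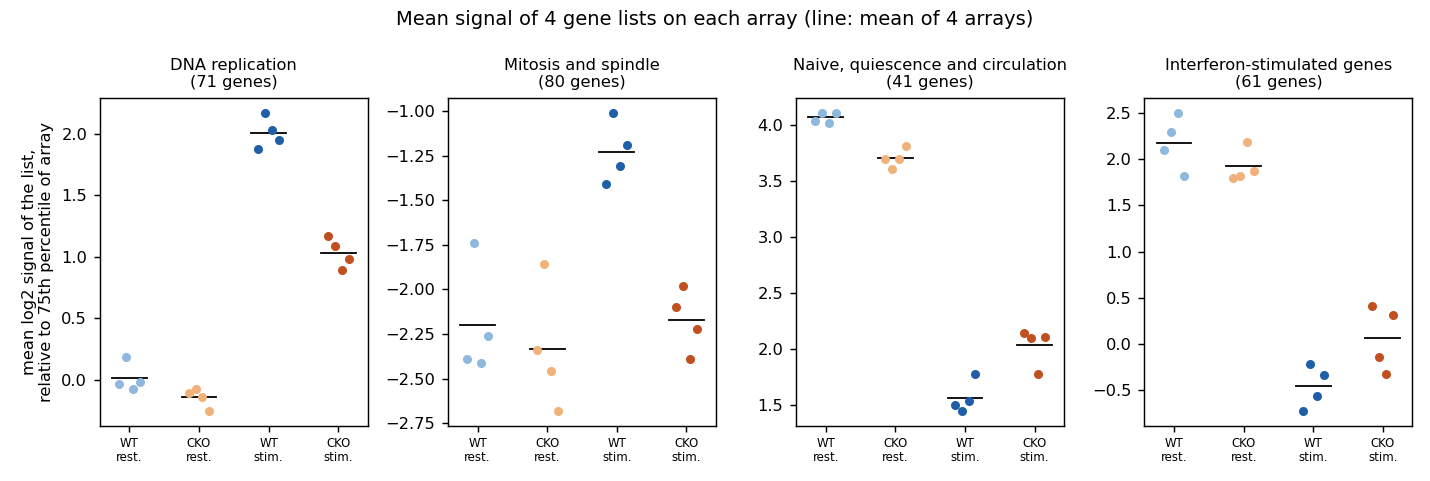
Mean log2 signal of 4 gene lists on each array of the 4 naive groups, 1 point an array and the line the group mean. On stimulated arrays DNA replication stands at 0.89 to 1.17 in CKO and 1.88 to 2.17 in WT, and the naive list at 1.78 to 2.14 in CKO and 1.45 to 1.78 in WT.

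The early products of TCR signalling showed no shared shift. Il2, the T cell growth factor, was -0.13, 0.12, 0.08 and -0.10 in WT and -0.17, -0.60, -0.52 and 0.75 in CKO cells (-0.13 ± 0.32, adjusted p = 0.803, limma). CKO replicate 4 was the highest of the 8 arrays and the other three CKO arrays were the lowest. Il2ra, the inducible chain of its receptor, was 3.15, 3.48, 3.36 and 3.13 in WT and 3.49, 3.21, 3.30 and 3.11 in CKO cells (adjusted p = 0.993), and 3 further probes gave -0.12, 0.45 and 0.54. Both groups had induced Il2 and Il2ra from resting means between -5.61 and -3.34. Of 51 TCR-induced receptors and factors 9 were higher (17.6%) and 3 lower (5.88%), with a median of 0.2. Of all genes 11.6% were called higher and 12.4% lower.

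Single genes within the TCR-induced list did differ. Tnfrsf4 (OX40), a costimulatory receptor, was 7.21, 7.35, 7.10 and 7.15 in WT and 6.17, 6.03, 5.87 and 6.85 in CKO cells (-0.97 ± 0.18, adjusted p = 0.000726). At rest it differed by 0.32, and the change between states was -1.29 (adjusted p = 0.00545). Socs3, an inhibitor of cytokine signalling, was -0.38, 0.34, 0.30 and 0.97 against 1.73, 1.67, 1.05 and 2.22 (1.36 ± 0.29, adjusted p = 0.00226). Neither gene's groups overlapped. Jun, a subunit of AP-1, differed by 1.35 ± 0.24, a call that ended with normexp background correction (0.63, adjusted p = 0.0623).

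Among 37 cytokines and secreted effectors 5 were higher (13.5%) and 2 lower (5.41%), against 11.6% and 12.4% of all genes, with a median of -0.14. The chemokine gene Ccl3 was -0.15, 1.02, 1.30 and 0.89 in WT and -0.84, -1.26, -1.26 and -0.12 in CKO cells (-1.64 ± 0.43, adjusted p = 0.0102), and the lowest WT array lay just under the highest CKO array. Tnfsf8 (CD30 ligand) was 3.37, 3.73, 3.62 and 3.66 against 4.83, 4.27, 4.55 and 4.71 (0.99 ± 0.16, adjusted p = 0.000174). Ebi3, a subunit of IL-27 and IL-35, differed by 1.68 ± 0.41 with groups that overlapped. Its call ended without slide 1 (adjusted p = 0.054).

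Cytokine receptors, JAKs and STATs were higher more than lower, 12 (35.3%) against 3 (8.82%) of 34, with a median of 0.35. Ifnar2, a chain of the type I interferon receptor, was 0.37, 0.14, 0.53 and 0.87 in WT and 1.60, 1.68, 1.50 and 1.89 in CKO cells (1.19 ± 0.14, adjusted p = 8.63e-06, limma). The groups stood well apart. Il18r1, a chain of the IL-18 receptor, differed by 1.82 ± 0.47 and lost its call with normexp background correction (0.93, adjusted p = 0.127). Stat2, a transducer of interferon signals, differed by 0.81 ± 0.18.

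In the TGF-beta pathway the ligand gene Tgfb3 stood out from its list. The pathway restrains T cell activation and guides Treg and Th17 differentiation. Of 33 genes 6 were higher (18.2%) and 3 lower (9.09%) with a median of 0.02, close to that of all genes. Tgfb3 was -4.68, -4.08, -4.79 and -5.14 in WT, where it was well above background on 2 of 4 arrays, and -1.35, -1.35, -1.74 and -1.40 in CKO cells. All 4 CKO arrays lay above all WT arrays by more than a log2 of 2, and the difference was at least 9.21-fold (adjusted p = 1.82e-07, limma). Among receptors, Eng (endoglin), an accessory receptor, differed by 1.75 ± 0.36. Of the inhibitors, Ldlrad4, which limits SMAD activation, differed by 1.19 ± 0.22, and Smad7 by 0.55 ± 0.15, a call that ended with normexp (0.44, adjusted p = 0.0906). Pmepa1, a target and inhibitor of the pathway, did not differ detectably after stimulation (-0.07 ± 0.32, adjusted p = 0.900), although its difference at rest was -2.73.

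Lineage factors went in both directions, 10 higher (27%) and 6 lower (16.2%) of 37, with a median of -0.03. Of all genes 11.6% were called higher and 12.4% lower. Foxp3, the factor that defines regulatory T cells, was -4.14, -3.87, -3.61 and -3.41 in WT and -1.65, -1.18, -1.35 and -1.06 in CKO cells. It was higher on every CKO array (2.45 ± 0.20, adjusted p = 5.30e-08, limma), and by 1.49 more than at rest (adjusted p = 0.00460). The sort took CD25- cells, and how many cells carried the transcript was not measured. Bcl6, the follicular helper factor, was 3.43, 2.92, 2.84 and 2.89 in WT and 4.16, 3.97, 4.09 and 4.50 in CKO cells (1.16 ± 0.18, adjusted p = 0.000186). Eomes, a factor of cytotoxic and memory cells, was -1.45, -1.59, -2.11 and 0.24 in WT and -4.73, -4.05, -4.04 and -3.74 in CKO cells (-2.91 ± 0.61, adjusted p = 0.00227). WT replicate 4 was the highest, and the other WT arrays also exceeded every CKO array.

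Other genes of regulatory T cells went in both directions. Of 24 Treg surface and effector genes 5 were higher and 5 lower (20.8% each, against 11.6% and 12.4% of all genes). Nrp1, a semaphorin receptor of thymic Tregs, was -3.43, -2.87, -3.56 and -2.39 in WT and -0.41, -1.59, -1.50 and -0.84 in CKO cells (1.97 ± 0.33, adjusted p = 0.000282). Gpr83, an orphan receptor found on Tregs, was 2.98, 3.20, 3.27 and 3.27 in WT and 0.67, 0.70, 0.56 and 1.01 in CKO cells (-2.45 ± 0.20, adjusted p = 5.50e-08). Nrp1 and Gpr83 differed at rest to like degrees, by 2.04 and -2.51. The list median of 0.29 was -0.07 with normexp, so it has no settled sign.

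Interferon-stimulated genes were higher in part. Of 61 measured, 19 were higher (31.1%, against 11.6% of all genes) and 2 lower, with a median of 0.47 that was -0.27 at rest. Of the 61, 9 were called more positive after stimulation than at rest, where 2.12% of all genes were. The result was uneven across slides, with medians of 1.15, -0.04, 0.15 and 0.69. List means were -0.72, -0.21, -0.56 and -0.33 on WT arrays and 0.41, -0.14, -0.32 and 0.31 on CKO arrays, where replicates 1 and 4 lay well above all WT arrays, replicate 2 just above them and replicate 3 among them. Replicates 1 and 4 are those from mice of 7 weeks in both groups. With normexp 8 members were higher and the median was 0.11, with the replicate number as a block 12 were higher, and scaled on the brightest probes 32.

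Usp18, which removes ISG15 and dampens the type I interferon receptor, had the largest difference of the named members. It was -2.73, -2.01, -2.34 and -2.02 in WT and 0.92, 0.41, 0.10 and 0.48 in CKO cells (2.75 ± 0.19, adjusted p = 4.05e-09, limma). All CKO arrays were above all WT arrays, and the effect exceeded that at rest by 2.50 (adjusted p = 1.14e-05). Irf7, the factor that amplifies interferon production, was -3.75, -3.20, -3.94 and -3.55 against -1.64, -2.24, -2.09 and -1.55 (1.73 ± 0.25, adjusted p = 7.06e-05). Oas1a, a sensor of double-stranded RNA, was -3.98, -2.83, -3.78 and -3.37 against -0.91, -1.57, -2.04 and -1.82 (1.90 ± 0.26, adjusted p = 3.73e-05). Ddx58 (RIG-I), a sensor of viral RNA, differed by 1.64 ± 0.25 and Zbp1, a nucleic acid sensor, by 1.53 ± 0.26. The related sensor Ifih1 (MDA5) went the other way, from -0.58, -0.33, -0.26 and -0.47 to -1.42, -2.13, -2.20 and -1.62 (-1.43 ± 0.21, adjusted p = 9.35e-05). Isg15, chosen after its values were seen as the best known member, overlapped between groups (0.10 ± 0.34, adjusted p = 0.850).

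The response element of these genes, the ISRE, was searched by its 10-letter consensus on both strands. The Oas1a window lies on the reverse strand at chr5:120907476-120907775, and its 2 matches, which overlap each other, are in capitals:
Oas1a: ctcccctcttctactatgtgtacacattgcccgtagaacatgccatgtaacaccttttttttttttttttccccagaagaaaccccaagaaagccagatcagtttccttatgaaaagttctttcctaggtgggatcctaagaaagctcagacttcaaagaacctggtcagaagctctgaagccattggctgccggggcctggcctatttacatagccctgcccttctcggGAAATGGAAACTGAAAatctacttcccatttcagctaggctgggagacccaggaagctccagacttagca
A match was present in 21 of the 43 interferon-stimulated genes with a window (48.8%), against 3.49% of all windows. Of these 21, 3 were higher and 2 lower, with a median of 0.28. Of the 22 without a match 7 were higher, with a median of 0.47. A further 18 members, among them Usp18, had no window and could not be classed. Of these 9 were higher, with a median of 0.61.

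Genes of effector and memory cells were higher, 16 of 37 (43.2%, against 11.6% of all genes) with none lower and a median of 0.74. Cxcr5, the receptor that guides cells to B cell follicles, was -1.96, -0.76, -2.47 and -2.13 in WT and 1.09, 0.96, 0.59 and 0.73 in CKO cells (2.67 ± 0.32, adjusted p = 8.55e-06, limma). Its groups did not overlap. Vim, the intermediate filament vimentin, was -1.17, 0.03, -0.65 and -0.07 against 1.31, 0.99, 0.50 and 1.63 (1.57 ± 0.26, adjusted p = 0.000248). Cxcr6, a receptor of tissue effector cells, was -0.79, -0.60, -1.27 and -0.96 against 0.57, 0.52, 0.45 and 1.09 (1.56 ± 0.21, adjusted p = 3.12e-05). Lgals3 (galectin-3) and S100a6, a calcium-binding protein, differed by 2.25 ± 0.52 and 1.96 ± 0.46. Of the list, 8 members were called more positive after stimulation than at rest, where 2.12% of all genes were. Within slides the median was 0.89, 0.54, 0.46 and 0.82.

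Markers of B cells and, in the median, of myeloid cells moved with these genes. Myeloid and dendritic cell markers had a median of 0.73 beside the 0.74 of effector and memory genes, and Vim, Lgals3 and S100a6 are also expressed by myeloid cells. With normexp the myeloid median was -0.08, that of B cell markers 0.36 and that of effector and memory genes 0.55. The myeloid median therefore has no settled sign. Cd79b, a subunit of the B cell receptor, was -2.60, -1.26, -3.26 and -2.00 in WT and 0.31, 0.78, -0.04 and -1.29 in CKO cells (2.22 ± 0.51, adjusted p = 0.00453, limma). CKO replicate 4 lay within the WT range, and WT replicate 2 was the highest WT array. The median B cell marker differed by 2, 1.2, 1.8 and 0.41 on the 4 slides, where effector and memory genes gave 0.89, 0.54, 0.46 and 0.82. Cxcr5 is also a B cell gene. CD8, NK and unconventional T cell markers were called higher in 3 of 14 and lower in 1, with summed levels of 4.33 to 6.62 in WT and 5.47 to 8.43 in CKO arrays. The part of these cells in the rise of effector and memory genes was not tested.

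Genes of the signalling branch through cyclic AMP, which restrains T cells, went in both directions. Of 22 genes 7 were higher (31.8%) and 2 lower (9.09%), against 11.6% and 12.4% of all genes, with a median of 0.29. Ptger2, a prostaglandin E2 receptor that raises cyclic AMP, was 0.88, 1.34, 1.33 and 1.00 in WT and -1.34, -1.59, -1.31 and -1.67 in CKO cells (-2.62 ± 0.25, adjusted p = 5.11e-07, limma). The groups were more than a log2 of 2 apart at their nearest arrays. The effect differed from that at rest by -1.62 (adjusted p = 0.0130). Pde4d, which breaks cyclic AMP down, was 0.19, -0.12, -0.27 and 0.17 against 1.26, 1.08, 0.73 and 1.42 (1.13 ± 0.23, adjusted p = 0.00184). Pde3b, a related enzyme, gave 0.63 ± 0.35 with overlapping groups (adjusted p = 0.188).

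Genes of coinhibition and anergy were called higher in 7 of 34 (20.6%) and lower in 1 (2.94%), with a median of 0.32. Ndrg1, a factor linked to anergy, was 1.71, 1.63, 1.33 and 1.54 in WT and 2.87, 2.66, 2.73 and 2.96 in CKO cells (1.26 ± 0.16, adjusted p = 1.44e-05). The 2 sets of arrays were separate, and at rest the difference was 0.20. The TCR complex and its proximal signalling genes divided evenly, with 3 higher and 3 lower of 32 (9.38% each) and a median of 0.01. Of 18 BCL2 family genes 1 was higher, and of 17 chemokine receptors 5 were, with medians of 0.13 and 0.04.

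The largest rises were mostly in genes outside the lists of T cell genes. Tdrd9, a germline RNA helicase of transposon silencing, was at least 231-fold higher in CKO cells. It is outside the naming rule, was chosen after its values were seen, and was well above background on only 2 of 4 WT arrays, so only this bound can be given. It was -6.88, -3.75, -7.46 and -4.49 in WT and 3.06, 3.53, 3.21 and 2.97 in CKO cells (adjusted p = 5.14e-08, limma). M1ap, a meiosis gene, was -2.05, -1.83, -2.85 and -2.69 against 2.50, 2.85, 2.00 and 2.53, a 28.3-fold difference (4.82 ± 0.26, adjusted p = 1.78e-10). Both genes' groups lay far apart. Pgpep1l, a peptidase-like gene, was -0.22, -0.04, -0.00 and 0.66 against 4.83, 4.72, 4.27 and 4.92 (4.59 ± 0.32) and differed by 4.62 at rest. Cdr2l differed by 3.46 ± 0.20, Ly6d, a surface protein also found on lymphoid precursors and B cells, by 3.76 ± 0.60, and Cyp4f18 and Cyp2s1, cytochrome P450 enzymes, by 3.32 and 3.25. The list of germline and pluripotency genes as a whole gave 3 higher and 3 lower of 20 (15% each). That was near the 11.6% and 12.4% of all genes, so Tdrd9 and M1ap did not stand for the list.

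The largest falls included cell cycle genes. Spin4, a spindlin family member, was 2.47, 2.01, 2.10 and 1.92 in WT and -1.63, -1.26, -0.73 and -0.70 in CKO cells (-3.20 ± 0.34, adjusted p = 1.40e-06, limma). Pbk, a mitotic kinase, was -3.09, -1.41, -2.01 and -2.57 against -4.43, -5.09, -4.51 and -6.13 (-2.77 ± 0.55, adjusted p = 0.00149), with 3 of 4 CKO arrays well above background. Neither overlapped. Aunip, which interacts with the mitotic kinase Aurora A, differed by -2.66 ± 0.64. The fall of Rhbdl3 (-2.57) was close to that of a further probe (-2.14) but not to that of another (0.11).

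Some genes were well above background in 1 group and on no array of the other, so only a bound on the fold can be given: the bright group's mean against the dim group's mean, each dim array set at the higher of its own signal and the lowest signal well above background on it. Among called genes whose groups did not overlap there were 107 such genes on the CKO side and 10 on the WT side, of 16489 tested. Detection itself was unequal, with 55.1 to 60.7% of probes well above background on CKO arrays and 51.8 to 57.3% on WT arrays. The part of detection in these counts was not tested. In CKO cells Wfdc2, a secreted protease inhibitor-like protein, was at least 19-fold higher, F12, coagulation factor XII, at least 11.8-fold, Kcnf1, a potassium channel subunit, at least 10-fold and Yes1, a Src family kinase, at least 9.53-fold. In WT cells Pdgfb, the platelet-derived growth factor B chain, was at least 8.01-fold higher. Its WT arrays read -2.89, -2.87, -1.76 and -2.40, and the CKO arrays, not well above background, -7.64, -7.48, -8.12 and -6.95. WT cells had raised Pdgfb from a resting mean of -7.02, and the difference between states had an adjusted p of 6.81e-05. Gpx7, a peroxidase of the endoplasmic reticulum, was at least 4.48-fold higher in WT.

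Growth and metabolic lists leaned downwards, but they hold bright genes, whose level moved with the scaling. Of all genes 12.4% were called lower. Bright genes of any kind leaned the same way, with medians of -0.38 over the brightest 10% and -0.22 over the next 10%. Of 58 ribosome biogenesis genes 19 were lower and none higher (median -0.33), and at rest 25 were lower. With quantile normalization 3 were lower and the median was -0.12. Of 78 mitochondrial ribosomal protein genes 52 were lower and none higher, with a median of -0.59, and with quantile normalization 8 were lower (-0.34). Heat shock and chaperone genes were lower in 10 of 29 (median -0.43), proteasome subunits in 14 of 38 (-0.46) and cytosolic ribosomal proteins in 15 of 81 (-0.47, yet 0.14 on slide 5). With quantile normalization these came to 1 (-0.12), 2 (-0.18) and 1 (-0.07). Their medians before that were close to the -0.38 of the brightest 10% of genes, where these lists lie by brightness. Amino acid uptake and serine genes had 6 of 30 lower and 1 higher (-0.21). Of tRNA synthetases 2 of 21 were lower (9.52%, a smaller share than of all genes, median -0.34), and of sterol and fatty acid synthesis 7 of 33 (-0.34). With quantile normalization the lower members were 2 (-0.10), 0 (-0.15) and 6 (-0.15), and scaled on the brightest probes the amino acid list had a median of 0.06. For glycolysis, where 7 were lower and 2 higher of 30 (-0.2), the median's sign turned to 0.07 with quantile normalization, 0.07 with scaling on bright probes and 0.06 with cyclic loess.

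Single genes of these lists held their direction under each scaling. Psat1 and Phgdh make serine. Psat1 was 3.56, 3.79, 3.74 and 3.60 in WT and 2.83, 2.54, 2.52 and 2.73 in CKO cells (-1.02 ± 0.11, adjusted p = 2.88e-06, limma). Phgdh was 6.62, 6.58, 6.61 and 6.32 against 5.63, 5.66, 5.45 and 5.87 (-0.88 ± 0.19, adjusted p = 0.00274). Wdr12, a ribosome assembly factor, was 3.82, 4.00, 4.19 and 3.79 against 3.40, 3.08, 3.18 and 3.15 (-0.75 ± 0.16, adjusted p = 0.00264). None of the 3 overlapped between groups. Myc, which drives this growth program, was lower by 0.60 on the log2 scale (-0.60 ± 0.15, adjusted p = 0.00776) with overlapping groups, and its call ended in 7 of the settings run, among them quantile normalization (-0.31, adjusted p = 0.17). Its antagonist Mxd4 was higher (1.21 ± 0.16), with -1.20, -0.91, -0.78 and -0.62 in WT and 0.68, 0.48, -0.04 and 0.20 in CKO cells.

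Partners and targets of Trim28 were read last. Of 31 genes in the list of Trim28 and its partners 5 were higher (16.1%) and 9 lower (29%). Mbd1, a methyl-CpG binding protein, was 2.55, 2.75, 2.93 and 3.00 in WT and 4.28, 4.20, 3.99 and 4.87 in CKO cells (1.53 ± 0.18, adjusted p = 7.22e-06, limma). Trim24, a relative of Trim28, was 2.67, 2.59, 2.52 and 2.49 against 3.89, 3.88, 3.46 and 3.54 (1.13 ± 0.14, adjusted p = 8.55e-06). Further Trim24 probes gave 1.70 and 2.35. By the first probe Trim24 differed by 3.16 at rest, so stimulation came with a smaller gap between genotypes (adjusted p = 2.08e-06 for the difference). Uhrf1, which guides maintenance DNA methylation and is an S phase gene, was 3.45, 3.55, 3.24 and 3.52 against 2.25, 2.24, 1.90 and 2.33 (-1.26 ± 0.24, adjusted p = 0.000870). Setdb1, the methyltransferase TRIM28 recruits, differed by 0.73, a call that ended without WT replicate 1 (adjusted p = 0.0586) or CKO replicate 3 (adjusted p = 0.0576); a second probe gave 2.18.

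Zfp-named and imprinted genes were read as lists of their own, and endogenous retroviruses were not examined. Neither list had a larger share of higher genes than all genes had. Of 291 genes named Zfp 29 were higher (9.97%, against 11.6% of all genes) and 12 lower (4.12%, against 12.4%). Their median was 0.10, against -0.05 over all genes, and 177 differences were positive and 114 negative. At rest 35 were higher and 23 lower, where 7.83% and 10.9% of all genes were. Zfp704 was highest in difference (2.63 ± 0.33, adjusted p = 1.60e-05) and Zfp367, lower by 1.58 on the log2 scale (-1.58 ± 0.16, adjusted p = 6.74e-07), was the lowest. Of 23 imprinted genes 2 were higher (8.7%) and 5 lower (21.7%). Among these Plagl1, a zinc finger factor, was -0.55, 0.19, -0.62 and -0.98 in WT and -1.61, -1.95, -1.73 and -2.13 in CKO cells (-1.36 ± 0.28, adjusted p = 0.00215).

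Comparison with the resting state separated effects that came with stimulation from those already there. Of the 3964 genes called in stimulated cells, 1250 were also called at rest in the same direction and 48 in the opposite one, and 2666 were not called at rest, which by itself does not show a difference. A difference between states was called for 564 genes (3.42% of all), 350 more positive (2.12%) and 214 more negative (1.30%) after stimulation, of which 413 were also called in stimulated cells. Without CKO replicate 1 the count was 360. Among genes that 3 or more arrays of each naive group measured clearly above background, the largest positive differences beside Cdc25b and Usp18 included Pde2a, a phosphodiesterase (2.94), Nrp2, a semaphorin receptor (2.53), and Cacnb3, a calcium channel subunit (2.51). The most negative among these were Ak7, an adenylate kinase (-4.18), and B4galt4, a galactosyltransferase (-3.59).

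Ccl3, Ccl4 and Tbx21 were more negative after stimulation as well, by -3.16, -2.98 and -2.56. Ccl4, a chemokine gene, read 3.67, 4.16, 4.18 and 3.99 in stimulated WT and 2.62, 2.33, 2.16 and 3.82 in stimulated CKO cells. Tbx21, the T-bet gene of Th1 cells, read 0.12, 2.02, 1.19 and 0.77 against 0.10, -1.16, -0.55 and 1.01. Both had overlapping groups and neither was called after stimulation itself (adjusted p = 0.0588 and 0.0628, limma). At rest both were higher in CKO cells, by 1.71 and 1.38.

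**Figure D5:**
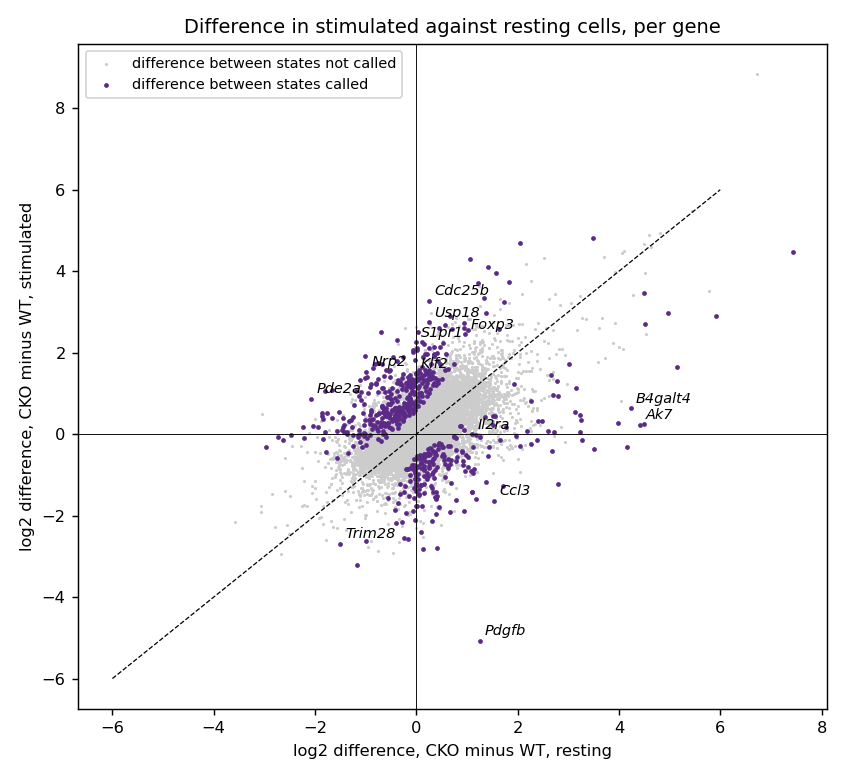
Log2 difference of CKO from WT in resting (x) and stimulated (y) naive cells, 1 point a gene; purple points are the 564 genes called for a difference between states and the dashed line marks equal differences. Cdc25b and Usp18 lie far above the line at a resting difference of 0.25, and Trim28, Ak7 and Pdgfb lie below it.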

How the data were processed

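Total RNA of 24 samples, in 6 groups of 4, was labelled with Cy3 and hybridised to 1-colour Agilent mouse arrays. The deposited scanner files hold an intensity per spot, made with Agilent Feature Extraction 9.5 per the submitters' processing notes. Per the file headers the processed signal was background subtracted and detrended. The authors' normalized table, also deposited as an intensity, was an alternative.

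The log2 processed signal minus the array's 75th percentile was used. Spots marked as outliers were dropped, and the remaining spots of each probe averaged. A probe well above background on at least 3 of 4 arrays of 1 group was kept, and a gene was read by its brightest kept probe. This kept 25198 of 41174 probes and gave 16489 genes, 12817 of them matched to RefSeq symbols. The number of arrays limits the precision. Group means over all 24 arrays were fitted with limma 3.58.1 in R 4.3.3 (2-sided, Benjamini-Hochberg adjusted), with contrasts for stimulated cells, resting cells and their difference. Regulatory T cells entered only the pooled spread. The fit was tested on simulated data.

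The comparison, gene lists and naming rule were chosen with earlier results of these data known. The rule named 12 set genes, the 15 largest rises and 15 largest falls among called, non-overlapping genes well above background in both groups, up to 8 genes per direction above background in 1 group only, up to 6 called members per list, and the 8 genes per direction that differed most between states. Alternatives were other background corrections, scalings and filters, the mean of probes, fewer arrays, array weights, slide and replicate blocks, and each array left out. Same-numbered arrays did not deviate together on every slide, so numbers were not taken as pairs. Some genes that the rule or the lists cover are not reported here.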

Additional observations from a re-analysis of the deposited data

Results flagged for a closer look

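Among 67 genes examined, 5 of 134 groups of 4 arrays held a sample far from the others, where chance alone marks about 1 in 20 groups. They were Cd4 in WT replicate 1 (-1.19), and CKO replicate 3 for Tgfb3 (-1.74), Trpm1 (-3.15), Epor (-6.45) and B4galt4 (-0.21).

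The effect of Trim28 loss differed between stimulated and resting cells, by the test of the difference itself (limma, adjusted over all genes), for 34 named genes. Values are the stimulated minus the resting log2 difference. Among the fixed genes these were Trim28 (-1.17), Foxp3 (1.49), Il2ra (-1.10), Cdc25b (3.03), Klf2 (1.50) and S1pr1 (2.26). Among large rises they were M1ap (1.33), Cdr2l (-1.04), Dnah8 (2.00), Cyp2s1 (1.53), Prr5 (-1.99) and Usp18 (2.50). Among large falls they were Spin4 (-2.04), Ptger2 (-1.62) and Rhbdl3 (-2.42). Among genes above background in 1 stimulated group only they were Yes1 (2.37), Trpm1 (2.69), Upk1b (-2.96), Pdgfb (-6.32), Rpp25 (-3.20) and Nlrp6 (-2.93). The stimulated group without signal leaves the size of these 6 unmeasured, so the fitted values are neither exact differences nor bounds. Of the rest, Pde2a (2.94), Ntrk3 (2.87), Pmepa1 (2.67), Nrp2 (2.53), Cacnb3 (2.51) and Myo10 (2.45) were more positive after stimulation. Ak7 (-4.18), B4galt4 (-3.59), Ccl3 (-3.16), Ccl4 (-2.98), Rhobtb1 (-2.77), Tbx21 (-2.56) and Eea1 (-2.52) were more negative.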

How the results depend on the processing

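Against 3964 genes called, 1912 higher and 2052 lower, normexp gave 1798, 694 and 1104, with 253 genes called for a difference between states and 8 interferon-stimulated genes higher. Quantile normalization gave 2382 called and 934 lower, and the authors' values 2377 and 929, of which 60.9% were higher. Scaling on bright probes gave 3481 higher and 730 lower, with 32 interferon-stimulated genes. No filter gave 2496 called, 1198 lower and 297 for the difference. Array weights gave 7437, 3447 and 3990, and 2574 for the difference. The 8 stimulated arrays alone gave 12 naive genes higher, and RefSeq-matched features alone 1227 genes higher. Cyclic loess, RefSeq-matched features and the fit without slide 1 were added after seeing the data; the last gave 2566 called, 1185 higher and 304 for the difference.

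With the replicate number as a block and only the 8 stimulated arrays fitted, 1643 genes were called, 977 higher (59.5%) and 666 lower. Among them 10 naive and 12 interferon-stimulated genes were higher. Deviations of same-numbered arrays correlated at -0.31, 0.21, 0.41 and 0.06, and not every array correlated best with its own number, so the numbers are no established pairs.

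Leaving out each array in turn gave 2385 to 4669 called, 1229 to 2211 higher, 1108 to 2458 lower, 360 to 752 for the difference, 57 to 64 replication and 26 to 39 mitosis genes lower, and 13 to 19 naive and 13 to 22 interferon-stimulated genes higher. The count moved by over 1.5 times without WT replicate 2 (2385), CKO replicate 2 (2506) or CKO replicate 3 (2452). Of 230 named genes called, 111 kept their call in every setting. Ntrk3 turned to -0.02 with normexp, and Iars and Mrpl27 to 0.17 each with the mean of probes. Causes were not tested.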
